A study of Rattus norvegicus with 31 samples.

Results

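White and brown adipose tissue of the same rats fed the low-fat diet were compared, gene by gene, by where each gene ranked within its own array. The comparison takes the 10 arrays of the L-group, 5 of white adipose tissue (WAT) and 5 of brown adipose tissue (BAT), out of the 31 arrays of the series. They were chosen by their labels, and rats 1 to 5 each gave 1 array per depot. The study asked how the ratio of carbohydrate to fat in an isoenergetic diet affects the transcriptomes of liver, WAT and BAT in young rats. The animals were male Wistar rats obtained at 3 weeks of age, kept on the diets for 9 weeks after a period on chow, and fasted for 17 h before sampling. The L-diet held 65% of its energy as carbohydrate and 15% as fat. The other rats used here, 4 of the H-group (rats 12, 13, 15 and 16), ate a diet with 35% of its energy as carbohydrate and 45% as fat, fed to the same energy as the L-diet, and were fasted in the same way. No genotype or drug differed between the groups, and the sources used here do not state which white depot was taken.

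WAT and BAT hold different kinds of adipocyte. A white adipocyte stores triacylglycerol in a single large droplet, releases fatty acids in fasting and secretes hormones such as leptin. A brown adipocyte has many small droplets and dense mitochondria, and it burns fatty acids to make heat through uncoupling protein 1 (UCP1), which lets protons back across the inner mitochondrial membrane without making ATP. Sympathetic nerves switch this on through beta-adrenergic receptors and cyclic AMP, which releases fatty acids and induces *Ucp1* and its coactivator *Ppargc1a*. Both kinds of adipocyte share the genes of the lipid droplet, fatty acid uptake and adiponectin secretion.

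Each value below is a within-array percentile, the rank of the probe set among the 31042 probe sets of that array, as a percentage of their number. Tied probe sets share the mean rank of their block, and 100 is the brightest probe set of the array. A difference is BAT minus WAT in percentile points within a rat, given as mean ± SD over 5 rats. Percentiles were needed because the deposited WAT values had been made with qFARMS and the BAT values with GCRMA, so that depot and summarisation method cannot be told apart. For the same reason no p is given between the depots, and an exact test over 5 rats could in any case not go below 0.0625. The 2 methods left marks that bear on every value. In WAT 83.0% of the probe sets (25762) held 1 value over all WAT arrays, which gives the WAT percentile almost no spread, so the SD of the difference then comes from BAT alone. In BAT 46.1% (14296) lay at the floor, within 0.1 of the lowest log2 value on every L array. Ranks inside that block carry no order, and its top lay at a percentile of 48.0 to 48.9. A gene at the BAT floor is therefore given as higher in WAT by at least the distance from the top of the block. In bulk tissue, fewer cells of a type and less RNA per cell cannot be told apart.

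Percentiles correlated between the depots, but less than among replicate arrays of 1 depot. Pearson's r of the percentiles over probe sets was 0.828 to 0.838 between a WAT and a BAT array. It was 0.994 to 0.996 among WAT arrays and 0.984 to 0.992 among BAT arrays. This contrast does not measure how far the tissues differ, because the between-depot r also crosses qFARMS and GCRMA. In WAT 83.0% of the probe sets held 1 value over all arrays, which fixes most ranks there, and in BAT 46.1% lay at the floor. The share of the tissues in the contrast was not tested. A probe set was called where the mean difference reached 25 points and the arrays of the depots did not overlap. By this rule 1536 probe sets were higher in BAT, which is 4.95% of those ranked, and 2187 were higher in WAT, which is 7.05%. Of the WAT-higher probe sets 1937 were at the BAT floor, and only 367 (1.18%) were higher by a bound of 25 points. Of the BAT-higher ones 1048 (3.38%) were above the floor. BAT-higher probe sets made up 41.3% of the calls, 44.9% when z scores within the array were used, 95.6% when the BAT floor was tied at its top, and 96.8% when log2 values were centred on the array median, which in BAT lay close to the floor. That last scaling moved the median difference of all probe sets by 0.71 log2 units and put all 24 genes of a general reference list higher in BAT, so directions under it are given only as a limit. The smallest called difference towards BAT was 25.001 points, and the largest uncalled one without overlap towards WAT was 24.987, while the nearest values on the other sides equalled the limit after rounding. Size matters here because 87.8% of all probe sets did not overlap between the depots at any size, BAT lying above WAT in 47.3% and WAT above BAT in 40.5%. With 1 probe set per gene, 3.69% of 14217 genes were called higher in BAT and 7.17% higher in WAT, and the median difference over these genes was −0.052 points.

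**Figure D1:**
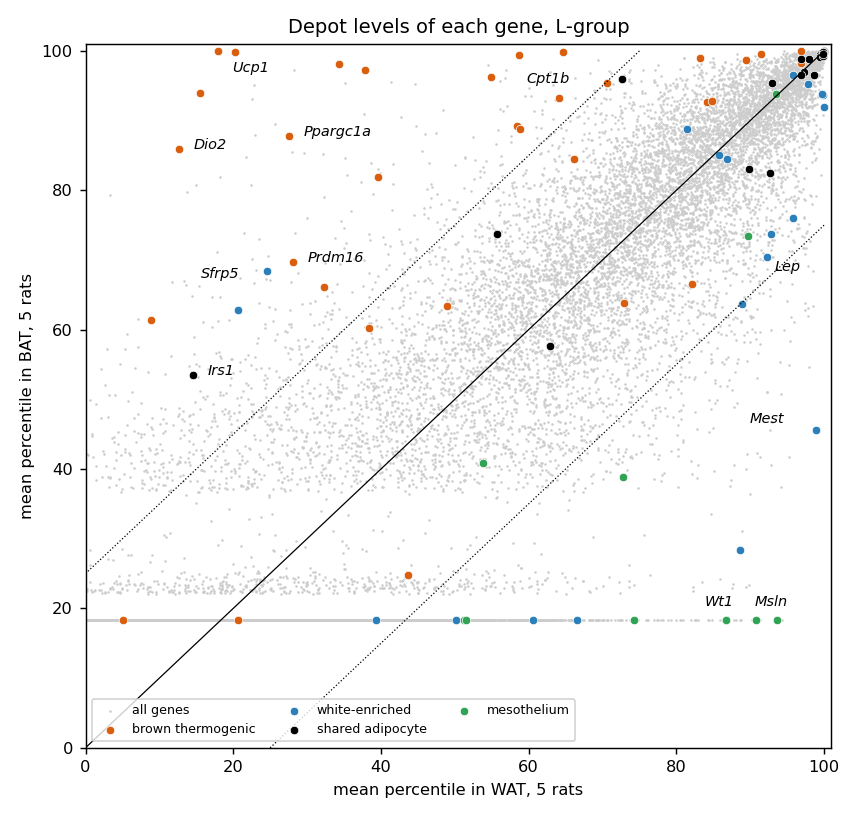
Mean percentile of each gene in WAT (x axis) against BAT (y axis) over the 5 L-group rats, 1 probe set per gene, with the lines of equality (solid) and of a difference of 25 points (dotted). The 17 of 33 brown thermogenic genes called higher in BAT lie above the upper dotted line, *Ucp1* at 17.9 and 100.0, and the rest of that list does not. Most shared adipocyte genes crowd the upper right corner. The row of points at a BAT percentile of 18.3 is the lowest block of tied values within the BAT floor.

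*Ucp1*, the uncoupling protein itself, had the largest difference towards BAT of all genes. It stood at a percentile of 17.87 to 17.95 in the WAT of rats 1 to 5 and at 99.95, 99.97, 99.97, 99.95 and 99.97 in their BAT. The 2 groups were separated by 82.1 ± 0.025 points, with a single WAT value behind the WAT side. *Cox8b*, a subunit of cytochrome c oxidase found in muscle and brown fat, went with it, at 20.3 in every WAT array and between 99.7 and 99.8 in every BAT array (79.5 ± 0.053 points). *Cox7a1*, another such subunit, differed by 21.9 ± 1.6 points without overlap and missed the size rule. Of 33 measured genes of a brown thermogenic list, 17 were called higher in BAT and none higher in WAT, against the 3.69% and 7.17% of all genes, and the list's median difference was 29.2 points. All 17 were above the BAT floor, and 14 of them held 1 value in WAT. The list was drawn up from what is known of brown fat, with earlier results on these arrays known.

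The promoters of the BAT-higher genes of this list were set beside each other because these genes lay furthest above WAT among the adipocyte lists. RefSeq promoters (build GRCr8, 250 bases before to 50 after the start of the gene) were at hand for 14 of the 17 genes. Shown are *Ucp1* (chr19:41721372-41721671, minus strand), *Cox8b* (chr1:205408224-205408523, minus strand), *Ppargc1a* (chr14:63634058-63634357, plus strand) and *Slc27a2* (chr3:134257851-134258150, plus strand), each 5′ to 3′ along the gene. Capitals mark every match to TATAAA on the gene's strand, and to TGACGTCA, TGACG or AGGTCA on both strands, where TGACG is contained in TGACGTCA.
Ucp1: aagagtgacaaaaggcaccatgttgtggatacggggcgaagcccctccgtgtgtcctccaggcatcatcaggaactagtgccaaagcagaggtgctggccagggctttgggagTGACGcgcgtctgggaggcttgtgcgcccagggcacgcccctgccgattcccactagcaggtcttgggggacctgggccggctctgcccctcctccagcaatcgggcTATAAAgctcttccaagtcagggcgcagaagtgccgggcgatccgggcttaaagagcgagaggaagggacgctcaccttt
Cox8b: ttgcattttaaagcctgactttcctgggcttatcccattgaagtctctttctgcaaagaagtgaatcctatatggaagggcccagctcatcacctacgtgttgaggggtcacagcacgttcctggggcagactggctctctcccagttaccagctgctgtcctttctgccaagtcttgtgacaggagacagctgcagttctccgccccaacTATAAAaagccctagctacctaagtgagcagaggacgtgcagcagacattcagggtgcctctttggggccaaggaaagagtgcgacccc
Ppargc1a: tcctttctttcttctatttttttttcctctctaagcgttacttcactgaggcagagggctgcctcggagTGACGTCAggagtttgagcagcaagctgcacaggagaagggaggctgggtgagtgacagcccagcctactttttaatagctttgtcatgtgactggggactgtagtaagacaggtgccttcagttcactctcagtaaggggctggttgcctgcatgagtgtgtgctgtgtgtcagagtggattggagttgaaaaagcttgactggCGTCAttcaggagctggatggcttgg
Slc27a2: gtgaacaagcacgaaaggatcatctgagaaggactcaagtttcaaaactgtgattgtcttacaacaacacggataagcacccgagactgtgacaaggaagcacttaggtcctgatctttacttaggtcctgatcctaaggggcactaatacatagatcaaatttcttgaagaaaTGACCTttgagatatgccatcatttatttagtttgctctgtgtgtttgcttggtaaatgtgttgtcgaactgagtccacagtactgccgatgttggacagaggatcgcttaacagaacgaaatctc
TGACGTCA is the full cyclic AMP response element, and among the 14 genes only *Ppargc1a* held it, against 1.83% of 33469 promoters. Its first bases, TGACG, were found for *Fabp3*, *Gk*, *Ppargc1a* and *Ucp1*, 4 of 14 genes against 21.2% of promoters. AGGTCA, the half-site of many nuclear receptors, was found for *Esrrg*, *Nrg4*, *Plin5* and *Slc27a2*, 4 of 14 genes against 16.2% of promoters. TATAAA was found for *Cox8b*, *Dio2* and *Ucp1*, 3 of 14 genes against 8.80% of promoters. *Esrrg* has several promoters in the table and was counted if any of them matched. These matches describe the letters in a window of 300 bases.

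The regulators of the brown programme were higher in BAT to different degrees. *Ppargc1a*, the coactivator that drives mitochondrial biogenesis and *Ucp1*, stood at 27.5 to 27.6 in WAT and at 94.3, 91.4, 81.7, 84.5 and 87.5 in the BAT of rats 1 to 5. This is a difference of 60.3 ± 5.1 points with no overlap, and its 2 other probe sets gave 75.005 and 75.3 points. *Prdm16*, a transcription factor that holds brown adipocytes to their fate, ranked lower than *Ppargc1a* in BAT but still apart from WAT, at 71.8, 71.5, 67.9, 67.6 and 69.8 in BAT against 28.0 to 28.1 in WAT (41.65 ± 2.0 points). *Ppara*, a nuclear receptor for fatty acids, stood at 8.9 in WAT and between 58.0 and 63.5 in BAT (52.5 ± 2.6 points). The related coactivator *Ppargc1b* and the oestrogen-related receptor *Esrrg*, which works with these coactivators on mitochondrial genes, were called with 29.2 ± 2.3 and 30.8 ± 0.58 points, while *Esrra*, its relative, lay just outside the size rule with 24.8 ± 0.62. *Ebf2*, an early marker of brown preadipocytes, was modestly higher, at 43.9 to 53.9 in WAT and 57.3 to 67.7 in BAT (14.5 ± 5.8 points, no overlap). *Zic1*, a marker of classical brown fat in mice, was at the BAT floor and so showed nothing either way.

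**Figure D2:**
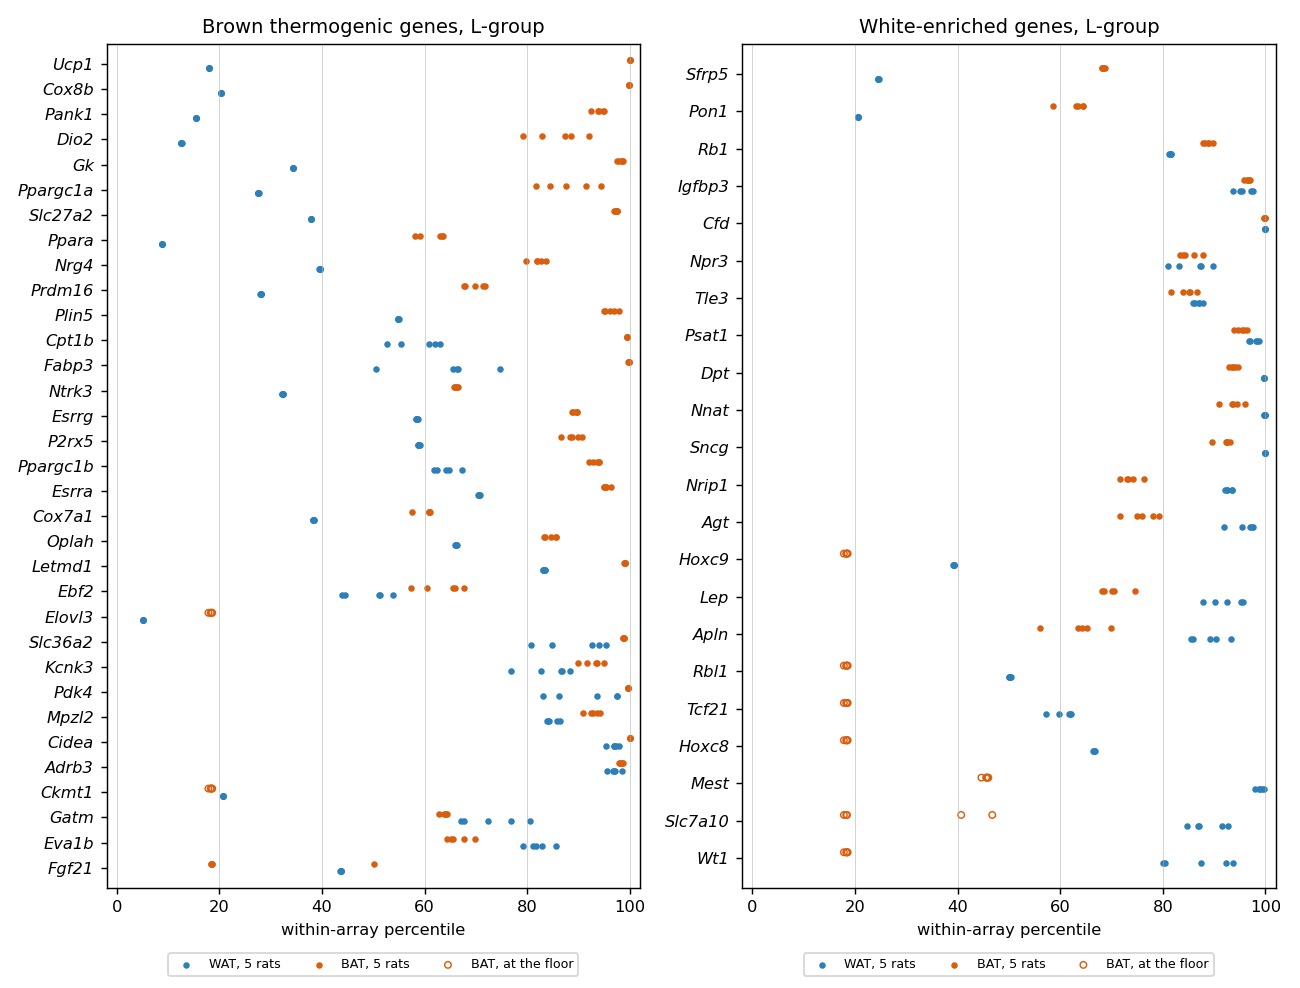
Within-array percentile (x axis) of every brown thermogenic gene (left) and white-enriched gene (right) on the 5 WAT and 5 BAT arrays of the L-group, ordered by the mean difference. Open circles are genes at the BAT floor, where rank has no meaning. *Ucp1* is highest on the left, and *Sfrp5* and *Pon1* on the right stand in BAT above WAT.

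Genes for supplying and burning fuel followed the regulators. *Dio2*, the deiodinase that makes active thyroid hormone inside brown fat, stood at 12.6 in WAT and at 88.5, 91.9, 82.9, 87.4 and 79.1 in BAT (73.3 ± 5.0 points). *Pank1*, which starts coenzyme A synthesis, differed by 78.5 ± 1.0 points, *Gk*, the glycerol kinase that lets brown fat reuse glycerol, by 63.9 ± 0.5, and *Slc27a2*, a fatty acid transporter and acyl-CoA synthetase, by 59.4 ± 0.32. *Dio2*, like *Ppargc1a*, varied between the BAT arrays, and *Gk* did so little, at 97.5 to 98.7. *Cpt1b*, the muscle and brown fat form of the enzyme that admits fatty acids to mitochondria, varied in WAT as well as in BAT. It stood at 55.3, 63.1, 61.9, 52.7 and 60.8 in WAT and at 99.4 to 99.5 in BAT (40.7 ± 4.5 points). *Fabp3*, a fatty acid carrier, behaved likewise, with 66.4, 74.6, 66.3, 50.5 and 65.5 in WAT and 99.7 to 99.9 in BAT (35.1 ± 8.7 points), and rat 4 was the lowest for both genes in WAT. *Plin5*, a droplet protein that tethers mitochondria, and *Nrg4*, a secreted factor of brown fat, were called with 41.4 ± 1.1 and 42.4 ± 1.5 points.

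Some brown markers separated the depots little on this scale. *Cidea*, a lipid droplet protein abundant in brown fat, was already at 97.0, 97.9, 97.4, 95.4 and 96.9 in WAT and reached 100.0 on every BAT array, so it could gain only 3.1 ± 0.93 points. *Adrb3*, the beta-adrenergic receptor of adipocytes, overlapped between the depots, at 95.4 to 98.4 in WAT and 97.8 to 98.6 in BAT. *Pdk4*, a brake on glucose oxidation that rises in fasting, was at 97.4, 97.4, 93.5, 83.0 and 86.1 in WAT and at 99.5 to 99.7 in BAT, a difference of 8.1 ± 6.6 points that was widest in rats 4 and 5. *Elovl3*, a fatty acid elongase of cold-exposed brown fat, was at the BAT floor. *Gatm*, which makes the creatine precursor, and *Eva1b* ran the other way without overlap, by −9.1 ± 6.1 and −15.6 ± 4.0 points, and *Fgf21*, a fasting hormone best known from the liver, overlapped, with 4 of the 5 BAT arrays at 18.3 to 18.6 and rat 4 at 50.1.

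White-enriched genes were less uniform. Of 22 measured, 7 were called higher in WAT and 2 higher in BAT, against 7.17% and 3.69% of all genes. The median difference was −13.6 points. By the bound against the BAT floor 4 were higher in WAT by 25 points or more, *Mest*, *Slc7a10*, *Wt1* and *Apln*. *Mest*, which follows adipocyte enlargement, stood at 98.7, 99.0, 97.9, 99.7 and 99.3 in WAT and at the floor in BAT, so it was higher in WAT by at least 50.3 points. *Slc7a10*, an amino acid transporter of the white adipocyte surface, was at 84.7 to 92.6 in WAT and at the floor in BAT (at least 40.0 points). *Wt1*, a transcription factor of the mesothelium and of visceral fat progenitors, was at 80.0, 87.4, 80.4, 92.4 and 93.7 in WAT and at the floor in BAT (at least 38.2 points). *Apln*, an adipokine, was above the floor in both depots, at 85.5 to 93.2 in WAT and 56.1 to 69.9 in BAT (−25.1 ± 7.2 points).

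Leptin, the hormone that reports fat stores to the brain, was above the floor in BAT. *Lep* stood at 90.2, 95.2, 92.5, 87.8 and 95.7 in WAT and at 70.4, 70.0, 68.2, 74.6 and 68.6 in BAT. The depots did not overlap, and the difference of −21.9 ± 5.5 points missed the size rule. *Agt*, angiotensinogen, and *Nrip1*, a corepressor of the oxidative programme, differed by −19.8 ± 3.3 and −19.2 ± 1.8 points without overlap, though both directions turned with centred log2 values. *Nnat*, *Sncg* and *Dpt* were at 99.6 or above in WAT and at 89.6 to 96.0 in BAT, also without overlap, and *Nnat* and *Dpt* turned with centred log2 values. *Sfrp5* and *Pon1* ran against the list. *Sfrp5*, a secreted Wnt antagonist, was at 24.5 to 24.6 in WAT and at 68.1 to 68.7 in BAT (43.8 ± 0.25 points), and *Pon1*, a lactonase carried on lipoproteins, was at 20.6 to 20.7 and at 58.6 to 64.5 (42.2 ± 2.4 points). The resistin gene *Retn* was not analysed here.

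Genes that every adipocyte uses ranked almost equally in the 2 depots. Of 23 measured shared adipocyte genes, 1 was called, higher in BAT, and the median difference was −0.10 points. The call is 4.35% of the list, near the 3.69% of all genes called higher in BAT. The list's median percentile was 98.6 in WAT and 98.8 in BAT, which leaves most of its genes no room for a call towards BAT. Near-equal ranks so close to 100 do not show equal expression. *Adipoq*, the adiponectin gene, was at 99.9 on each WAT array and 99.8 on each BAT array. *Pparg*, the master regulator of adipocytes, overlapped, at 96.7 to 97.8 in WAT and 96.2 to 97.5 in BAT, and *Fabp4* and *Plin1*, the fatty acid carrier and droplet coat of adipocytes, had means of 99.6 or above in both. The called gene was *Irs1*, the insulin receptor substrate, at 14.5 to 14.6 in WAT and 51.5 to 56.6 in BAT (38.9 ± 2.3 points). These BAT values lay not far above the top of the floor block, and in the BAT of H-group rat 16 *Irs1* was at 17.2, within it. The insulin-regulated glucose transporter *Slc2a4* stood at 70.7, 69.5, 74.95, 76.4 and 71.6 in WAT and at 95.6 to 96.4 in BAT (23.4 ± 3.2 points), and the insulin receptor *Insr* differed by 18.02 ± 2.2. In a list of 10 lipolysis genes none was called and the median difference was 0.032 points. Hormone-sensitive lipase *Lipe* was at 98.7 in WAT and 99.3 in BAT, and the triglyceride lipase *Pnpla2* at 99.6 in both. The median percentile of this list was 99.1 in WAT and 99.0 in BAT, so the same limit applies. Of 10 triacylglycerol synthesis genes, with a median percentile of 97.0 in WAT, none was called (median difference 1.1 points). *Gpam*, the first acyltransferase, was the highest above the floor at 22.9 ± 2.2.

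**Figure D3:**
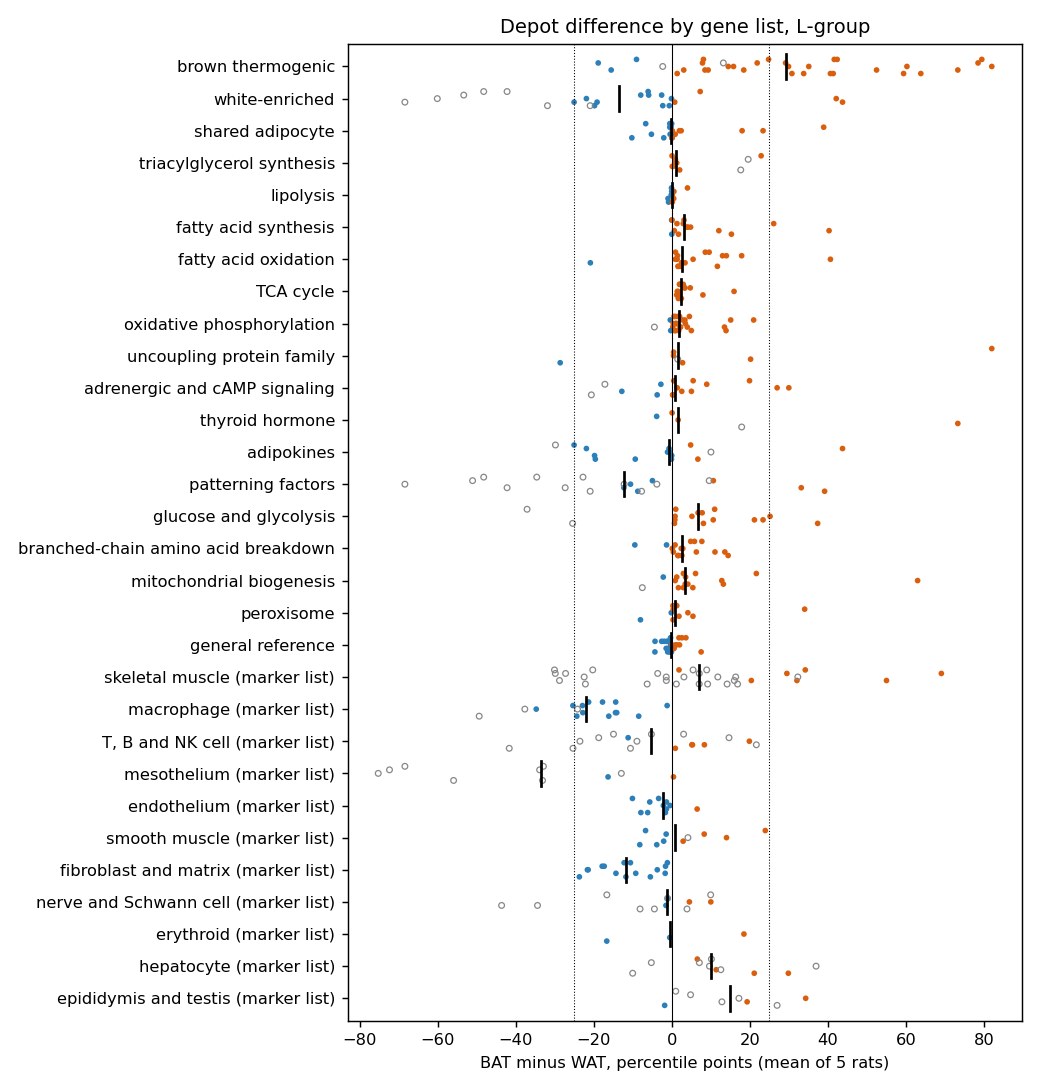
BAT minus WAT in percentile points (x axis, mean of 5 L-group rats) for each gene of the 30 lists, orange for BAT above WAT, blue for WAT above BAT and grey open circles for genes at the BAT floor. Black bars are list medians and dotted lines mark 25 points. The median is 29.2 for brown thermogenic genes, −13.6 for white-enriched genes and near 0 for shared adipocyte, lipolysis and general reference genes.

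Genes of mitochondrial pathways lay higher in BAT nearly throughout, in small steps on their brightest probe sets. Dimmer probe sets of some differed more, by 43.5 ± 0.37 points for *Cs* and 60.4 ± 0.87 for *Hadh*. Others, of *Eci1*, *Hadha* and *Sucla2*, ran towards WAT but were at the BAT floor. The median percentile of the TCA cycle, oxidative phosphorylation and fatty acid oxidation lists was already 96.4 to 97.7 in WAT, which leaves little room below 100. Among probe sets with a mean percentile of 90 or more, BAT lay above WAT without overlap in 39.3% and WAT above BAT in 39.8%, and this is the share to read the next counts against. For the TCA cycle BAT was above WAT in 15 of 15 genes, and none of these directions turned under another scaling. Citrate synthase *Cs* stood at 97.6 in WAT and 99.9 in BAT (2.3 ± 0.32 points), and the widest was *Idh3a*, a subunit of isocitrate dehydrogenase, with 15.955 ± 0.18. For oxidative phosphorylation BAT was above WAT in 24 of 27 genes and below it in 3, of which *Cox6a2* was at the BAT floor and *Atp5pf* and *Atp5mc3*, parts of ATP synthase, differed by −0.3 ± 0.11 and −0.4 ± 0.16 points. Of those that differed by most, *Cox5a* had 21.0 ± 0.33 points and *Ndufb8* of complex I 15.1 ± 0.37. For fatty acid oxidation BAT was above WAT in 18 of 19 genes, with *Slc25a20*, the carnitine carrier, at 17.9 ± 0.16, *Cpt2* at 14.0 ± 1.5 and *Acadm*, the medium-chain dehydrogenase, at 5.4 ± 0.6 points. The exception was *Cpt1a*, the liver form of the enzyme whose muscle form *Cpt1b* was higher in BAT. *Cpt1a* stood at 88.5, 83.7, 85.4, 88.6 and 90.3 in WAT and at 64.8 to 67.3 in BAT (−20.9 ± 2.8 points).

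Other metabolic lists held few calls, to be read against the 3.69% of all genes called higher in BAT and the 7.17% higher in WAT. Their counts without overlap are read against the 47.3% of all probe sets in which BAT lay above WAT. The fatty acid synthesis, peroxisome and branched-chain lists had median WAT percentiles of 95.7, 95.8 and 92.6. For them the 39.3% among probe sets with a mean percentile of 90 or more is the nearer share. Of 15 fatty acid synthesis genes 12 were above WAT in BAT and 2 were called, *Acacb*, the acetyl-CoA carboxylase at the mitochondrial surface (40.3 ± 0.3 points), and *Mlxipl*, the carbohydrate-responsive factor ChREBP (26.1 ± 1.7). *Elovl6*, a fatty acid elongase, was at 79.9 to 87.6 in WAT and 97.5 to 98.5 in BAT (15.3 ± 2.7), and *Fasn* had means of 99.3 and 99.99. Of 17 glucose genes 15 were above WAT in BAT, and the hexokinases divided. *Hk2*, the insulin-responsive form, was at 46.5 to 46.7 in WAT and 82.9 to 85.0 in BAT (37.4 ± 1.0 points), whereas *Hk1* was at 79.9 to 82.0 in WAT and at the floor in BAT (at least 32.4 points). The muscle phosphofructokinase *Pfkm* was called just inside the size rule with 25.2 ± 0.62 points, and the glucose transporter *Slc2a1* was higher in WAT by at least 15.2. Of 16 mitochondrial biogenesis genes 13 were above WAT in BAT and 1 was called, *Perm1*, a muscle-type regulator that works with *Ppargc1a*, at 21.7 to 21.8 in WAT and at 80.3, 86.0, 85.9, 85.7 and 86.2 in BAT (63.0 ± 2.5 points). Of 10 peroxisome genes 6 were above WAT in BAT, a share near that of all probe sets, and 1 was called, *Ehhadh*, the bifunctional enzyme of peroxisomal oxidation, at 54.3 to 69.4 in WAT and 95.3 to 97.9 in BAT (34.1 ± 5.3). Of 17 genes of branched-chain amino acid breakdown 12 were above WAT in BAT and none was called. *Slc25a44*, the mitochondrial carrier of these amino acids, differed by 13.6 ± 1.0 points, and *Bcat2*, the transaminase of the pathway's opening step, by −9.5 ± 2.8.

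The uncoupling protein family did not move as a block. Beside *Ucp1*, *Ucp3*, the form of muscle and brown fat, was at 76.9 to 77.3 in WAT and 96.9 to 97.9 in BAT (20.2 ± 0.42 points). *Ucp2*, a widely expressed relative also found in macrophages, ran the other way, at 91.3, 90.5, 88.2, 91.0 and 90.9 in WAT and at 61.4 to 62.1 in BAT (−28.6 ± 1.1). The 2 groups of *Ucp2* values were far apart and above the floor in BAT, and the direction held under every scaling tried. Of 16 adrenergic and cyclic AMP genes 2 were called (12.5%), both higher in BAT, against 3.69% of all genes. They were the alpha-adrenergic receptor *Adra1a* (30.0 ± 1.1 points) and the phosphodiesterase *Pde4d* (27.0 ± 1.2). The BAT values of *Adra1a*, 46.5 to 48.8, lay within the floor block in rats 1, 2 and 5 and just above it in rats 3 and 4. The beta-adrenergic receptor *Adrb1* differed by 5.0 ± 2.2 points and turned to WAT with z scores. Of the other thyroid hormone genes the receptors *Thra* and *Thrb* differed by 1.6 ± 0.62 and −3.9 ± 1.0 points on their brightest probe sets. Their directions were not settled. The other *Thrb* probe sets were higher in BAT without overlap, by 5.3 ± 3.0, 16.5 ± 4.3 and 21.4 ± 5.9 points. A dimmer *Thra* probe set differed by −4.8 ± 0.91 points, and another was at the BAT floor. *Dio1*, the liver and kidney deiodinase, was at the BAT floor.

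Secreted factors and factors of body position held calls in both directions, few of them firm against the floor. Of 16 adipokine genes 2 were called higher in WAT, *Apln* and *Tnf*, of which *Tnf* was at the BAT floor and has no bound, and 1 higher in BAT, *Sfrp5*, which are small counts beside the 7.17% and 3.69% of all genes. *Ccl2*, a chemokine that draws monocytes, differed by −19.6 ± 7.3 points and *Vegfa*, the vascular growth factor, by 6.7 ± 0.52. Of 19 patterning factors 6 were called higher in WAT and 2 higher in BAT, against the same 7.17% and 3.69%. All 6 were at the BAT floor, and only *Wt1* passed by the bound. The next were the homeobox gene *Hoxc5* with at least 20.8 points, the nuclear receptor *Nr2f1* with at least 20.2 and *Hoxc8* with at least 17.98, then *Tcf21*, a factor of white preadipocytes, at 57.3 to 62.2 in WAT (at least 11.98), while *Hoxc9* lay inside the range of the floor. Higher in BAT were *Irx3*, at 27.5 to 27.6 in WAT and 57.1 to 67.5 in BAT (33.2 ± 5.0 points), and *Hoxa9*, at 4.4 in WAT and 40.5 to 52.5 in BAT, where only rat 3 lay above the top of the floor block. *Hoxa5* was higher in BAT without overlap, by 10.6 ± 2.8 points. The lists share genes, so their counts are not separate results. *Wt1* and *Hoxc9* among the patterning factors, and *Apln* and *Sfrp5* among the adipokines, are in the white-enriched list as well.

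Markers of other cell types differed between the depots beside these genes, and their part in the results was not tested. The mesothelium is the cell layer that covers visceral organs and fat. Of its 10 measured genes 7 were called higher in WAT and none in BAT, against 7.17% and 3.69% of all genes. By the bound 4 of the 7 were higher in WAT by 25 points or more. *Msln*, mesothelin, stood at 88.8, 93.1, 92.3, 97.4 and 96.5 in WAT and at the floor in BAT (at least 45.0 points), and *Upk1b*, a uroplakin, at 82.8, 91.1, 87.4, 96.5 and 95.9 (at least 42.1). The keratin *Krt8* was at 69.2, 73.9, 69.6, 88.3 and 70.5 in WAT (at least 25.7 points). Rat 1 was the lowest and rat 4 the highest for the list as a whole, whose mean percentile was 65.6, 74.3, 72.0, 87.8 and 79.3 in the WAT of rats 1 to 5 and 35.1 to 36.1 in BAT. *Wt1*, which is in this list as well as in the white-enriched one, followed that order in part, with rats 1 and 3 low and rats 4 and 5 high. *Lrrn4*, another mesothelial gene, overlapped between the depots on its brightest probe set, at 87.9 to 97.1 and 93.0 to 94.3. Its other probe sets were higher in WAT without overlap, with WAT means of 78.9 and 72.2, and lay at the BAT floor.

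Macrophage genes were higher in WAT without overlap in 16 of 16, against 40.5% of all probe sets, and 7 of the 16 turned with centred log2 values. The mean percentile of the list was 83.2 to 85.0 in WAT and 61.5 to 63.0 in BAT. Called were *C1qb* and *C1qc*, chains of complement C1q, by −34.8 ± 0.9 and −25.4 ± 0.61 points, and, at the BAT floor, the scavenger receptor *Cd163* by at least 40.8 and the integrin *Itgam* by at least 7.4. *Csf1r*, the growth factor receptor that defines the lineage, was at 95.2 to 96.4 in WAT and 72.3 to 73.5 in BAT (−22.9 ± 0.73). Of 15 fibroblast and matrix genes all were higher in WAT without overlap, against the same 40.5%, and none was called. The widest were *Col14a1* with −23.7 ± 3.3 points and *Pdgfra*, the receptor of adipocyte progenitors, with −21.7 ± 1.7. With centred log2 values 11 of the 15 turned. Endothelial genes (median −2.2 points) and smooth muscle genes (median 0.72) held no call. Of 24 general reference genes none was called, and all lay between −4.3 and 7.5 points. Their median percentile was 97.6 in WAT and 97.5 in BAT, which leaves little room for a call towards BAT.

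Muscle genes need care in BAT, which borders skeletal muscle and shares genes with it. Of 31 measured skeletal muscle genes 24 were at the BAT floor, among them the defining genes *Acta1*, *Myh4*, *Myh2*, *Casq1* and *Tnnt3*. Of all probe sets 46.1% were at the BAT floor, and the counts at the floor in this paragraph are read against that share. Above the floor and called higher in BAT were *Mybpc2*, a myosin-binding protein, at 28.1 to 28.2 in WAT and 97.0 to 97.6 in BAT (69.1 ± 0.26 points), and *Actn2* (55.1 ± 4.2), *Neb* (34.2 ± 0.097), *Mb* (32.1 ± 4.9) and *Myl1* (29.5 ± 1.4). *Myh1*, a fast myosin heavy chain, was high in both depots, at 97.3 to 98.5 in WAT and 99.7 to 99.8 in BAT. Called higher in WAT were 4, all at the BAT floor and none by the bound. Of this list 19.4% was called higher in BAT, against 3.69% of all genes, and 12.9% higher in WAT, against 7.17%. On each L-group BAT array 7 of the 31 genes stood above the floor, and the mean percentile of the list was 35.8 to 37.6 in BAT and 29.9 to 30.1 in WAT. Of 11 hepatocyte genes 7 and of 8 epididymis and testis genes 5 were at the BAT floor. Of each list 2 genes were called higher in BAT, 1 of them at the floor, and the median differences were 10.1 and 15.0 points. The others were *Cyp2e1*, a cytochrome P450 of the liver (29.9 ± 2.5 points), and *Tnp1*, a sperm chromatin protein, which lay above the top of the floor block only in rat 4 (34.3 ± 5.0). Of 17 lymphocyte genes 11 and of 12 nerve and Schwann cell genes 8 were at the BAT floor too. Of each list 2 genes were called higher in WAT, none of them by the bound. These are 11.8% and 16.7% of the lists, against 7.17% of all genes.

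**Figure D4:**
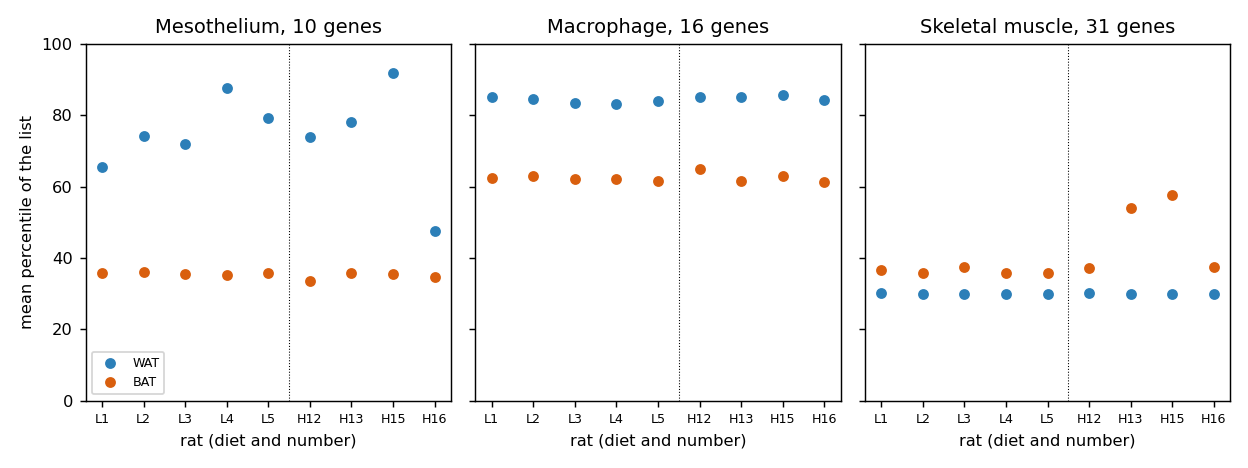
Mean percentile (y axis) of the mesothelium, macrophage and skeletal muscle lists on each WAT and BAT array, rat by rat (x axis), L-group left and H-group right of the dotted line. Mesothelial genes vary between rats in WAT, from 65.6 in rat 1 to 87.8 in rat 4 of the L-group and from 47.6 to 92.0 in the H-group, and skeletal muscle genes stand at 53.9 and 57.7 in the BAT of H-group rats 13 and 15.

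Over all genes, those with the widest difference towards BAT were, after *Ucp1*, *Cox8b* and *Pank1*, *Sult1c3*, a sulfotransferase, with 76.0 ± 5.3 points, *Ppargc1a* (75.3 ± 7.2) and *Dio2*. *Adtrp*, a lipase of fatty acid esters of hydroxy fatty acids, stood at 22.8 in WAT and 93.8 to 96.0 in BAT (72.3 ± 0.92 points). *Ppp1r3b*, which targets a phosphatase to glycogen, *Abcb11*, best known as the bile salt export pump of the liver, and *Sox6*, a transcription factor, were among the 15 with 66.8 ± 1.5, 65.8 ± 5.0 and 64.3 ± 2.1 points. The others were *Tmem79*, *Mybpc2*, *Gk*, *Calr4* and *Clcn4*. These 15 were taken over all probe sets of a gene, and *Ppargc1a* and *Gk* are among them on a wider but dimmer probe set than the one described above, on which they differed by 60.3 and 63.9 points. All 15 held 1 value in WAT. The 15 genes with the widest difference towards WAT were all at the BAT floor. They were led by *Wfdc21*, a whey acidic protein family member, at 92.3, 97.5, 92.8, 96.0 and 92.8 in WAT (at least 45.7 points), *Msln* and *Tnfrsf11b*, the decoy receptor osteoprotegerin (at least 44.8). Next came *Col8a2*, *Upk1b*, *LOC100909539*, *Sbsn*, *Cd55*, a complement regulator, and *Star*, which carries cholesterol into mitochondria (at least 41.6 points), then *Dnase1l3*, *St6gal1*, *Slc39a8*, *Rab3b*, *Wt1* and *Septin8*, down to at least 37.7 points.

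The H-group rats repeated the measurement in other animals with the same arrays and the same 2 summarisations. By the same rule 1559 probe sets (5.02%) were higher in their BAT and 2184 (7.04%) higher in their WAT. Of the 3723 probe sets called in the L-group 3458 had the same call in the H-group, and none had the opposite one. This is 92.9% of the L-group calls and 92.4% of the 3743 H-group calls. Much of this share was fixed in advance. Of the L-group calls 1475 towards BAT and 1634 towards WAT held 1 value over all WAT arrays, those of the H-group included. For these calls only the BAT side was measured anew, and 1937 of the calls towards WAT were at the BAT floor. *Ucp1* differed by 82.0 points in the H-group and *Lep* by −29.0, while *Apln*, called in the L-group, differed by −15.95 points and was not called. *Acta1*, the muscle actin, was at 18.6 and 17.2 in the BAT of H-group rats 12 and 16 and at 17.9 to 18.6 on the L-group BAT arrays, but at 86.1 and 93.6 in H-group rats 13 and 15. *Myh4*, a fast myosin, and *Tnnc2*, a troponin, stood at 69.9 and 77.1 and at 77.5 and 84.3 in these 2 rats. The number of the 31 skeletal muscle genes above the floor was 7, 17, 20 and 9 in H-group rats 12, 13, 15 and 16. Without rats 13 and 15, 90.5% of the L-group calls were found in the H-group.

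**Figure D5:**
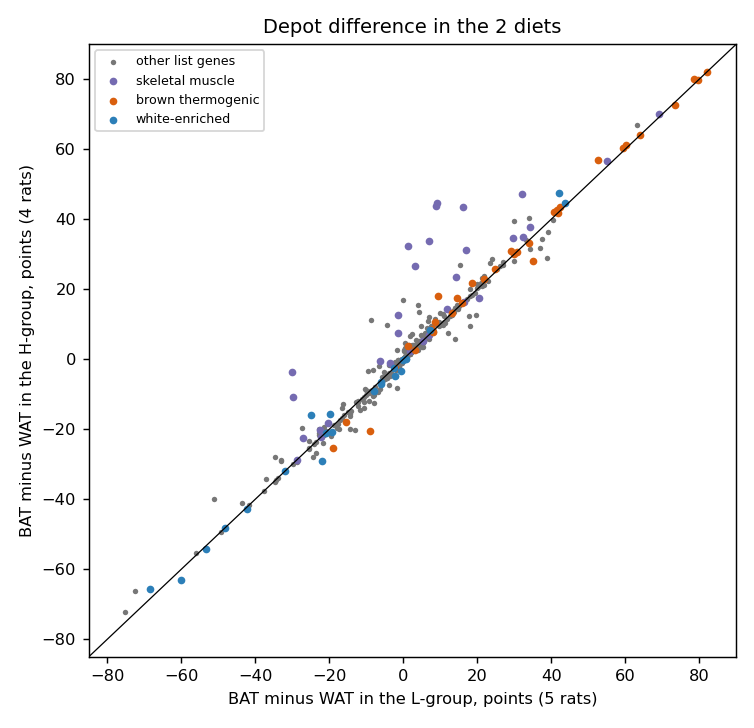
BAT minus WAT in percentile points of each list gene in the L-group (x axis, mean of 5 rats) and in the H-group (y axis, mean of 4 rats), with the line of equality. Brown thermogenic and white-enriched genes lie along the line, *Ucp1* at 82.1 and 82.0, and the points above it are mostly skeletal muscle genes such as *Acta1* at 9.2 and 44.7.

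Whether the depot difference depended on the diet could be tested in part, because a constant offset that a summarisation method adds to a depot is common to both diets. For the 83.0% of probe sets with 1 value over all WAT arrays, H-group included, a diet effect in WAT could not appear. There the test reads BAT almost alone. The within-rat differences of the 4 H-group rats were set against those of the 5 L-group rats by limma with Benjamini-Hochberg adjustment. None of the 31042 probe sets passed in either direction (0.0% each way), and 1403 had an unadjusted p under 0.05. The smallest p belonged to *Thoc2*, an mRNA export factor, whose difference was 7.96 points in the L-group and 10.2 in the H-group (2.2 ± 0.26 SE, adjusted p = 0.38 by limma). *Mcam*, an endothelial and pericyte adhesion molecule, followed with −16.9 and −22.3 points, and *Slk*, a kinase, with 48.9 and 42.2, both with an adjusted p of 0.38 by limma. *Fads1*, the delta-5 desaturase, went from −4.6 to −13.6 points (adjusted p = 0.40 by limma). Rats moved the count. Without H-group rat 12 there were 5 calls (*Cish* on 2 probe sets, *Pex19*, *Gstm7* and 1 probe set with no symbol), without rat 16 there were 4 (*Socs3*, *Cnot6*, *Zfp84* and 1 with no symbol), without rat 15 there was 1 (*Jmjd1c*), without L-group rat 4 there was 1 (*LOC102549726*), and without H-group rats 13 and 15 there were 11. These genes were named after their values were seen.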

How the data were processed

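RNA of WAT and BAT from the same rats was hybridized to Affymetrix rat genome arrays, 1 per rat and tissue. The authors deposited log2 values, made with qFARMS for WAT and GCRMA for BAT (RMA for the liver, not used here), each tissue normalized on its own. The values ran from 4.56 to 14.9 in WAT and from 2.29 to 15.7 in BAT, with array medians of 7.17 and of 2.43 to 2.46. Arrays have no read depth, and the number of arrays and the floor limit the precision.

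The 57 control probe sets were left out and the other 31042 were ranked within each array. No 2 arrays held the same values. Of these probe sets 20826 carried 1 gene symbol, 436 several and 9780 none by the platform annotation. Each gene was represented by its brightest probe set in the mean percentile over the 10 arrays, out of those that carry its symbol alone. The widest genes each way were instead taken over all such probe sets. Of 138 list genes with several probe sets, *Kcnk3* and *Nrf1* had probe sets called in opposite directions. A call needed 25 points and no overlap.

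The lists, 30 with 443 measured genes, 11 of them markers of other cell types, and the choice of samples were made with earlier results of these data known. Named were up to 5 genes per list and direction, a set of depot markers, the 15 widest genes each way (above the BAT floor where BAT was higher) and the 10 genes with the smallest diet p. Some are left out for length. Depots were paired by rat, since both came from the same animal, through the within-rat difference.

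The diet test was tested on simulated data and used limma 3.58.1 in R 4.3.3. Other steps used Python 3.11.15 with numpy 2.4.6 and pandas 2.3.3. Nothing in the labels says how the RNA of the tissues was batched. Alternatives were other sizes, other rank universes, a tied floor, z scores, centred log2 values, all probe sets of a gene, the H-group rats and each rat left out. Any-size calls, bounds and the removal of H-group rats 13 and 15 were added after the data were seen.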

Additional observations from a re-analysis of the deposited data

Results flagged for a closer look

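In 26 of 271 groups of 5 arrays, which is 9.59%, 1 array lay far from the other 4 by Dixon's test, where chance gives about 5%. The test reads gaps relative to the range, so small absolute gaps pass it too. The 5% presumes normally spread values, which ranks in the BAT floor block are not. For *Fgf21*, *Adam7*, *Tnp1*, *Cd2* and *Hoxa9* the other 4 BAT arrays lay within that block. The share of 9.59% can therefore not be read as an excess. In the BAT of rat 4 there were 8 flagged values, several of them of this kind. *Fgf21* stood at 50.1 (others 18.3 to 18.6), *Adam7* at 49.0 (others 18.3 to 18.6), *Tnp1* at 50.9 (others 39.5 to 40.1) and *Cd2* at 51.8 (others 45.4 to 45.8). *Pon1* stood at 58.6 (others 63.1 to 64.5), *Opa1*, which fuses mitochondria, at 91.6 (others 93.0 to 93.4), *Prm2* at 48.5 (others 49.2 to 49.4) and *Dpp4* at 52.9 (others 53.2 to 53.3).

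In the BAT of rat 1, *Perm1* stood at 80.3 (others 85.7 to 86.2), *Abcd2*, a peroxisomal fatty acid carrier, at 84.9 (others 89.0 to 89.9) and *Hbb* at 99.2 (others 99.4 to 99.5). In that of rat 2, *Cox7a1* stood at 57.5 (others 60.8 to 61.1), *Thrb* at 87.8 (others 89.7 to 90.5) and *Adcy4* at 63.7 (others 62.2 to 62.5). In that of rat 3, *Hoxa9* stood at 52.5 (others 40.5 to 41.8) and *Fabp5* at 95.4 (others 96.7 to 97.1). In that of rat 5, *Esam* stood at 87.5 (others 91.1 to 92.4), *C1qb* at 59.8 (others 61.3 to 61.7) and *Sdha* at 99.7, where the others also round to 99.7.

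In WAT, rat 3 held *Tfrc*, the transferrin receptor, at 90.9 (others 85.9 to 86.9), *Col14a1* at 94.9 (others 98.0 to 98.4), *Ucp2* at 88.2 (others 90.5 to 91.3) and *Scd* at 99.9 (others 100.0). Rat 4 held *Krt8* at 88.3 (others 69.2 to 73.9) and *Mgll*, a monoglyceride lipase, at 99.0 (others 99.1 to 99.2), and rat 1 held *Cpt2* at 82.2 (others 85.2 to 86.2). What set these arrays apart was not tested.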

How the results depend on the processing

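The counts moved with the size rule and the scale, and their causes were not tested. Probe sets higher in BAT and in WAT numbered 1536 and 2187, and 7444 and 6475 at 10 points, 96 and 180 at 50 points, and 14692 and 12574 at any size (added after the data were seen). They numbered 7907 and 367 with the BAT floor tied, 793 and 973 by z scores, and 12038 and 400 by centred log2 values. Fewer probe sets enter the next counts by construction, 903 and 1210 among those with a single symbol, 1107 and 1197 above the BAT floor, and 55 and 171 among those that also vary in WAT. By the bound, 367 were higher in WAT. Leaving out each rat gave 1526 to 1551 and 2196 to 2226. The 17 brown thermogenic genes became 28 by centred log2 values. The 7 white-enriched genes became 4 with the floor tied and 4 above the floor, and 3 by centred log2 values. The 4 macrophage genes became 8 with single-symbol ranks, 10 above the floor and 9 by z scores, and the 7 mesothelial genes became 4 with the floor tied, 1 above the floor and 4 in the H-group rats. Leaving out each rat gave 17, 6 to 7, 4 to 5 and 7 for these lists. With the floor tied, 6 genes that had been called higher in WAT turned to BAT, *Atp2a1* (0.39 points), *Myog* (3.03), *Nkg7* (0.01), *Tnf* (0.42), *Tnni1* (1.46) and *Tnnt3* (0.18). Uncalled genes at the floor turned as well, and with them 11 of the 31 skeletal muscle genes did.

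The diet test pairs the depots within each rat. Without this replicate block it made 11 calls, 8 higher and 3 lower in the H-group, against 0 with it, 0 with a trended robust fit, 0 among informative probe sets, 0 with the floor tied and 0 on the deposited log2 values. Leaving out each rat gave 0 to 5, and leaving out H-group rats 13 and 15 (added after the data were seen) gave 11. The BAT floor, the constant WAT values and the few rats limit what these arrays can show.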

Other observations

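*Alb* and *Slc36a2* varied between the rats of the L-group in WAT while staying level in their BAT. *Alb*, the albumin gene, stood at 93.1, 71.5, 98.3, 98.0 and 80.1 in the WAT of rats 1 to 5 and at 99.5 to 99.7 in BAT, although 7 of the 11 hepatocyte genes were at the BAT floor. *Slc36a2*, an amino acid transporter of brown fat, stood at 80.7, 84.8, 95.3, 94.0 and 92.6 in WAT and at 98.7 to 98.9 in BAT. *Scd*, the fatty acid desaturase, was at 99.9 to 100.0 in the WAT of every L-group rat and at 96.5, 52.6, 96.5 and 85.2 in that of H-group rats 12, 13, 15 and 16, while in BAT it stayed at 99.3 or above in both groups. The diet test made no call on it (adjusted p = 0.90 by limma).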
